A study of Mus musculus with 6 samples.

Results

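Disease-associated microglia genes are the transcripts that microglia, the resident macrophages of the brain, raise around degenerating neurons and plaques in mouse models of neurodegeneration. The 10 genes described here are Trem2, Tyrobp, Apoe, Cst7, Lpl, Axl, Cd9, Csf1, Cd63 and Spp1. They were taken by gene symbol from a deposited table of 33182 genes, and each symbol was found in 1 row. RNA came from the motor cortex of SOD1G93A mice at day 120. These mice carry a mutant human SOD1 and are a model of amyotrophic lateral sclerosis. The 3 control libraries and the 3 libraries of the ultrasound treatment group all have this genotype, so the disease transgene is common to both groups and no healthy reference enters the comparison. The series names the treatment low-intensity pulsed ultrasound; the sources used here do not say whether controls had a sham exposure. Each label names a mouse, without saying that the animals were separate, so the spread behind each p-value is that of these libraries and may be technical.

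TREM2 is a lipid-sensing surface receptor of microglia, and it signals through the adaptor TYROBP, also called DAP12. In mouse, microglia that leave their homeostatic state raise Tyrobp and Apoe early, and the later genes, among them Cst7, Lpl, Axl, Cd9, Csf1 and Spp1, depend on TREM2. Lipid handling, lysosomal activity and phagocytosis are the functions most often linked to this state. Several of the genes are also transcribed by other brain cells: Apoe mainly by astrocytes, Cd9 in the oligodendrocyte lineage and Spp1 by some neurons. In a bulk sample, fewer cells of a type and less RNA per cell cannot be told apart.

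RefSeq promoter entries on GRCm38.p6 were matched for 8 of the 10 symbols, and 3 of them are shown. Trem2 is printed as the receptor of the group, Spp1 as the gene that varied most among those abundant enough to test, and Cst7 as the gene with 0 counts in 2 libraries. Each sequence covers the 250 bases before the annotated start, 5′ to 3′, and capitals mark GAGGAA or its reverse complement TTCCTC, the core of the PU box to which the myeloid factor PU.1 (Spi1) binds.
Trem2 (chr17:48346151-48346400, plus strand): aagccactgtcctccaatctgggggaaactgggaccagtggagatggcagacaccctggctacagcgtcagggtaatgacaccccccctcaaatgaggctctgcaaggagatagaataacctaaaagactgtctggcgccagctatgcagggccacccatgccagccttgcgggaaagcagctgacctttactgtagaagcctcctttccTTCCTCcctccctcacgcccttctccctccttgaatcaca
Spp1 (chr5:104434861-104435110, plus strand): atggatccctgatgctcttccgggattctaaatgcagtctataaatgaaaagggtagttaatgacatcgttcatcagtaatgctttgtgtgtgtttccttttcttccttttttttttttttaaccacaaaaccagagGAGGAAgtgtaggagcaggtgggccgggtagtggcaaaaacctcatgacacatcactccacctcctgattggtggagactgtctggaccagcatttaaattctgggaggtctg
Cst7 (chr2:150570165-150570414, plus strand): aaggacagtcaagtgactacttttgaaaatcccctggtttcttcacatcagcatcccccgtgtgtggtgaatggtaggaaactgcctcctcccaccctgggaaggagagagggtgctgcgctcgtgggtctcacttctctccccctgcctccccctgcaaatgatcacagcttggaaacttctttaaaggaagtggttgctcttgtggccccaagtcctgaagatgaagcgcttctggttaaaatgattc
On either strand, GAGGAA was present in 6 of the 11 entries of these genes, against 23.3% of 32851 promoter entries of all genes. The 6 entries belong to 5 of the 8 matched genes (Trem2, Apoe, Axl, Cd63 and Spp1), of which Apoe has 3 entries and Spp1 has 2. It began 40 bases before the Trem2 start and 113 bases before the Spp1 start, and the Cst7 window held none. Neither the E-box CACGTG nor the AP-1 letters TGAGTCA was found in any of the 11 entries of these genes, against 6.02% and 4.46% of all entries. A match of letters describes the window and does not show binding.

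None of the 10 genes changed past the threshold between ultrasound and control. Of 15740 genes with a mean of at least 0.5 FPKM (fragments per kilobase of transcript, scaled to library size), 1 had an adjusted p under 0.05 in edgeR's quasi-likelihood test, or 0.00635%, and it was none of these. Cst7 was below that minimum, which left 9 of the 10 genes tested. Lpl had an unadjusted p under 0.05, that is 1 of 9, where 4.77% of all tested genes did; by direction these were 2.45% higher and 2.32% lower, and Lpl was higher. Values were higher with ultrasound for 7 of the 9, against 48.8% of all tested genes, and the median log2 fold change was 0.14, against -0.01 over all tested genes. In 0 of the 10 genes did control and ultrasound libraries separate in FPKM without overlap, where 10.8% of tested genes did, 3.7% higher and 7.08% lower with ultrasound.

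Total counts ranged from 38202541 to 60088636 per library. Csf1r and Tmem119, genes that define microglia, were present in every library, with Csf1r between 12.9 and 18.2 FPKM. Control 3 stood apart by olfactory bulb transcripts: the summed FPKM of 6 such genes was 69.6 there and between 7.00 and 9.88 elsewhere. Striatal genes, which motor cortex should hold little of, summed to between 132 and 540 FPKM over 8 genes, highest in control 3 and ultrasound 3. Choroid plexus genes summed to 244 FPKM in ultrasound 3 and to at most 15.5 in the other libraries, but Ttr alone held 235 FPKM of the former. Clic6 and Aqp1 were higher in control 3 (3.49 and 3.12 FPKM) than in ultrasound 3 (3.23 and 0.714 FPKM). Kl, Folr1, Kcnj13 and Otx2 were higher in ultrasound 3 than in control 3. The 18S ribosomal RNA gene took 4.68% of the counts in control 3 and 9.18% in ultrasound 2. Neutrophil genes summed to 19.6 and 30.1 FPKM in controls 1 and 2 and to at most 8.01 in the other 4 libraries. S100a8, S100a9, Retnlg and Mmp9 were highest in controls 1 and 2. Csf3r was highest in control 1, and Ly6g had 4 counts, all in control 2. Ngp and Camp were instead highest in ultrasound 2, with 50 and 19 counts. Of the monocyte genes, Ccr2, which defines inflammatory monocytes, had at most 16 counts anywhere, and Ly6c2 and Plac8 at most 54 and 57. Chil3 had 259 and 226 counts in controls 1 and 2 and at most 8 elsewhere. S100a4 reached 221 counts in ultrasound 2, and Fn1 lay between 3.33 and 6.39 FPKM.

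Trem2 and Tyrobp are the receptor and the adaptor of the pathway. Gene positions are given on GRCm38 from GENCODE M21 by gene identifier, since the start and end in the deposited table matched that annotation for 0 of the 10 genes. Trem2 (ENSMUSG00000023992, chr17:48346401-48354147, plus strand) stood at 1.12, 1.65 and 1.70 FPKM in controls 1 to 3 and at 1.05, 2.16 and 1.53 FPKM in ultrasound libraries 1 to 3. The lowest and the highest of the 6 values were both ultrasound libraries, so the groups overlapped fully. Its counts were 351, 558 and 361 in the controls and 257, 547 and 364 with ultrasound, a log2 fold change of 0.14 (SE 0.34; edgeR adjusted p 0.995). The direction depended on single libraries: the log2 fold change was -0.02 without control 1 and -0.20 without ultrasound 2. Tyrobp (ENSMUSG00000030579, chr7:30413760-30417585, plus strand), whose product carries the activating motif that recruits SYK, stood at 10.5, 8.70 and 7.62 FPKM in the controls and 9.38, 10.9 and 10.6 FPKM with ultrasound. Control 3, the lowest, held 219 counts and control 1, the highest control, 442. Its log2 fold change was 0.24 (SE 0.25; edgeR adjusted p 0.976).

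Receptor and adaptor did not keep a fixed proportion across the libraries. There were 0.794, 1.41 and 1.65 Trem2 counts per Tyrobp count in controls 1 to 3 and 0.834, 1.47 and 1.07 with ultrasound. Control 3 had the highest ratio and control 1 the lowest, so the range within the controls covered every ultrasound library. By the root mean square difference of log2 CPM (counts scaled to library size) centred on each gene's mean over the 6 libraries, Tyrobp was at place 4161 of 15739 genes in likeness to Trem2, with a difference of 0.41. A profile with no variation at all lay at 0.39, and 21.4% of genes were nearer to Trem2 than that, so Tyrobp was no nearer than a flat profile. Apoe was nearest to Trem2 of the group, at place 100 and 0.21, followed by Cd63 at place 355 and 0.26. The 5 nearest named genes were Comtd1, Rps27l, Ypel3, Bloc1s1 and Rps3a3, with differences from 0.08 to 0.11, all 5 low in control 1 and ultrasound 1 and highest in ultrasound 2. Rps3a3 is a copy of a ribosomal protein gene, and reads may have been divided between copies.

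Of 14 genes that act around TREM2, 12 were tested, with 0 past the threshold, 0 with an unadjusted p under 0.05 and a median log2 fold change of -0.10. In this list Inpp5d, the lipid phosphatase SHIP1 that restrains TREM2 signalling, had a log2 fold change of 0.32 (SE 0.19), Adam10, a protease that can shed TREM2, had 0.25 (SE 0.16), and the adaptor Grb2 had -0.13 (SE 0.15). None of the 3 passed in edgeR, each with an adjusted p of at least 0.973. Syk, the kinase that docks on TYROBP, lay at 0.679, 0.466 and 0.544 FPKM in controls and at 0.404, 0.496 and 0.799 FPKM with ultrasound.

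**Figure D1:**
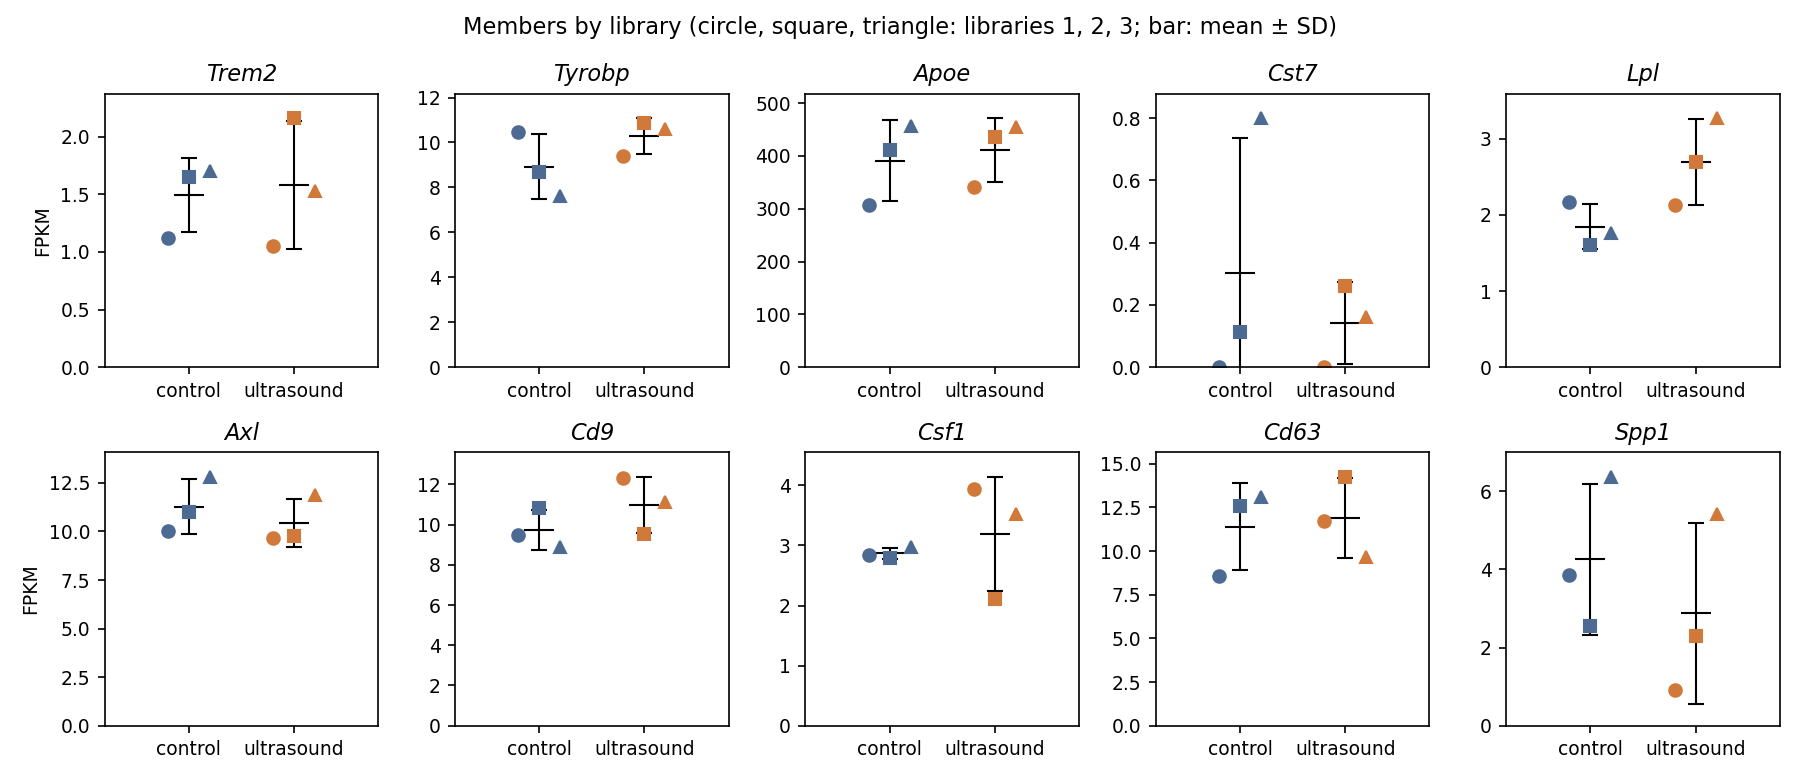
FPKM of each of the 10 genes (vertical axis, from 0) in the 3 control (blue) and 3 ultrasound (orange) libraries; circle, square and triangle are libraries 1, 2 and 3, and the bar gives mean ± SD, which for Cst7 in controls is cut off at 0. The groups overlap in every panel; Spp1 spreads from 0.903 to 6.37 FPKM and Cst7 lies at 0 in control 1 and ultrasound 1.

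Apoe and Lpl handle lipids. Apoe (ENSMUSG00000002985, chr7:19696109-19699188, minus strand), the main lipid carrier protein of the brain, stood at 306, 410 and 457 FPKM in controls, and at 342, 436 and 454 FPKM with ultrasound. In both groups library 1 was the lowest, and the controls spanned all 3 ultrasound values. Its mean was 391 ± 77.3 FPKM in controls and 411 ± 60.3 FPKM with ultrasound (SD, n = 3), and the log2 fold change was 0.11 (SE 0.19; edgeR adjusted p 0.986). Without control 1 its sign turned, at -0.03. Apoe made up between 86.3% and 89.1% of the summed FPKM of the 10 genes in each library, so any sum over the group is mostly Apoe. The astrocyte genes, 9 in all, summed to 559 to 666 FPKM in controls and 583 to 725 FPKM with ultrasound, and Slc1a2 and Aldoc were the most abundant of them; their part in the level of Apoe was not tested.

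Lpl (ENSMUSG00000015568, chr8:68880491-68907448, plus strand), the enzyme that hydrolyses lipoprotein triglycerides, had the smallest p of the group. It stood at 2.17, 1.601 and 1.76 FPKM in controls, and at 2.13, 2.69 and 3.27 FPKM with ultrasound. Ultrasound 2 and 3 lay above every control, while ultrasound 1 lay just below control 1. The counts were 1440, 1145 and 792 against 1099, 1446 and 1642. Its log2 fold change of 0.59 (SE 0.22) came with an unadjusted p of 0.027 and an edgeR adjusted p of 0.973, so Lpl did not pass. Its value stayed above 0 in all 15 alternatives, from 0.44 to 0.75, with adjusted p from 0.651 (DESeq2) to 0.998 (edgeR). Pyramidal neurons also transcribe Lpl. The 9 neuronal and layer 5 genes examined summed to 572, 626 and 663 FPKM in controls 1 to 3. In ultrasound 1 to 3 they summed to 803, 724 and 639 FPKM. Within that group the library with most Lpl had the lowest sum. Between the groups, all 9 were higher with ultrasound, as Lpl was and as 48.8% of all tested genes were. Their median log2 fold change was 0.35. In edgeR 2 of the 9 were higher with an unadjusted p under 0.05, against 2.45% of tested genes in that direction. Their part in the Lpl values was not tested.

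Genes around these lipid proteins gave no call. Of 13 genes for APOE receptors and cholesterol export, all tested, 6 were higher and 7 lower, and their median log2 fold change was -0.04. The smallest p-values belonged to Nr1h2, the oxysterol receptor LXR beta, with a log2 fold change of -0.40 (SE 0.18), to Abca7, a lipid transporter, with -0.36 (SE 0.18), and to Nr1h3, LXR alpha, with -0.86 (SE 0.49), which was -0.24 without control 3. Each of these had an edgeR adjusted p of 0.973. For LPL, Sel1l, needed for its folding in the endoplasmic reticulum, had 0.39 (SE 0.19), the inhibitor Angptl4 had 0.67 (SE 0.49) and Lmf2, of the lipase maturation factor family, had 0.15 (SE 0.22). These partners did not pass either, and 4 of the 7 partners found were tested and all 4 were higher, with a median of 0.27. Gpihbp1, which anchors LPL to capillaries, was counted in ultrasound 3 only, with 4 counts.

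Axl and Csf1 belong to receptor and growth factor signalling. Axl (ENSMUSG00000002602, chr7:25757273-25788705, minus strand) encodes a receptor tyrosine kinase that takes part in clearing dying cells. It stood at 10.03, 11.01 and 12.8 FPKM in the controls and 9.66, 9.77 and 11.9 FPKM with ultrasound. Library 3 was the highest in each group. With a log2 fold change of -0.08 (SE 0.15; edgeR adjusted p 0.988) it did not pass, and the sign was positive, at 0.03, without control 3. In the same receptor family, the log2 fold change of Mertk was 0.35 (SE 0.29), while the ligands Gas6 and Pros1 had -0.16 (SE 0.11) and 0.20 (SE 0.20), again without a call; of the 4 genes listed, 3 were higher and 1 lower, with a median of 0.16. Axl counts per Mertk count ran from 0.686 to 1.68 in the controls, a range that held all ultrasound values (0.743 to 0.956).

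Csf1 (ENSMUSG00000014599, chr3:107741048-107760469, minus strand), a growth factor that sustains microglia through the receptor CSF1R, differed in spread between the groups more than in mean. The controls lay close together, at 2.83, 2.79 and 2.98 FPKM. The ultrasound libraries stood at 3.93, 2.12 and 3.52 FPKM, so that ultrasound 1 and 3 were above all controls and ultrasound 2 below all. The log2 fold change was 0.18 (SE 0.22; edgeR adjusted p 0.981), and the difference in spread was not tested. Il34, the other ligand of CSF1R, was more abundant, between 18.6 and 25.9 FPKM, with a log2 fold change of -0.04 (SE 0.17). Csf1r had 0.18 (SE 0.15), and the myeloid transcription factors Irf8 and Spi1 had 0.25 (SE 0.32) and 0.29 (SE 0.39). These 4 were, like Csf1, not called. Of the 7 genes listed for this axis 6 were in the table and 5 were tested, 4 higher and 1 lower, with a median of 0.18.

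The tetraspanins Cd9 and Cd63 organise membrane proteins, Cd9 at the cell surface and Cd63 in late endosomes and lysosomes. Cd9 (ENSMUSG00000030342, chr6:125460266-125494791, minus strand) was, with Axl, among the steadiest of the 9 tested genes, each with an SD over the 6 libraries of 0.16 in log2 CPM, against a median of 0.29 over all tested genes. It stood at 9.47, 10.8 and 8.89 FPKM in the controls and 12.3, 9.54 and 11.1 FPKM with ultrasound. Ultrasound 1, the highest for Cd9, was also highest for the 9 oligodendrocyte genes, whose sum was 495 FPKM there and between 267 and 394 FPKM elsewhere; their part in the Cd9 values was not tested. Its log2 fold change was 0.21 (SE 0.16; edgeR adjusted p 0.976). The exons of Cd9 overlap those of Gm26728 in GENCODE M21, and those of Spp1 overlap Gm42793, so counts of these loci could be shared.

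Cd63 (ENSMUSG00000025351, chr10:128900989-128912822, plus strand) stood at 8.57, 12.6 and 13.1 FPKM in the controls and 11.7, 14.2 and 9.66 FPKM with ultrasound. Control 1 was the lowest library and ultrasound 2 the highest; of the other 4, controls 2 and 3 lay above ultrasound 1 and 3. The log2 fold change of 0.11 (SE 0.22; edgeR adjusted p 0.991) turned to -0.05 without control 1 and to -0.10 without ultrasound 2. Of 9 other tetraspanins, all tested, 6 were higher and 3 lower with a median of 0.07, and the leukocyte genes Cd37 and Cd53 had 0.47 (SE 0.39) and -0.26 (SE 0.24). The oligodendrocyte tetraspanin Tspan2 was at 2.55 FPKM in control 1 and between 12.8 and 20.9 FPKM in the other libraries, a log2 fold change of 0.72 (SE 0.61). None of these tetraspanins passed in edgeR.

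Spp1 (ENSMUSG00000029304, chr5:104435118-104441050, plus strand) encodes osteopontin, a secreted ligand of integrins and CD44. It stood at 3.85, 2.55 and 6.37 FPKM in controls, and at 0.903, 2.29 and 5.43 FPKM with ultrasound, a 7.06-fold range. Control 3 and ultrasound 3 were the highest and ultrasound 1 the lowest, so the difference within the ultrasound group exceeded that between groups. The counts were 402, 288 and 450 against 74, 194 and 429. Over the 6 libraries the SD of its log2 CPM was 1.02, larger than that of 92.6% of tested genes. The log2 fold change was -0.53 (SE 0.65; edgeR adjusted p 0.981). It rested on single libraries: it was -0.11 without control 3, -0.10 without ultrasound 1 and -1.33 without ultrasound 3.

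The libraries with most Spp1 were also those with most striatal RNA, but the order did not hold below them. The striatal sum was 540 and 534 FPKM in control 3 and ultrasound 3, the libraries richest in Spp1, and 132 to 333 FPKM in the other 4, with none of the 8 striatal genes at 0. Among those 4 the sum was highest, at 333 FPKM, in ultrasound 1, where Spp1 was lowest, and lowest, at 132 FPKM, in control 2. Fibroblast and mural genes, 8 in all, also summed highest in ultrasound 3 and control 3, at 30.9 and 30.4 FPKM, against 17.0 FPKM in control 1, which was next in Spp1, and 24.7 to 26.6 FPKM in the others. Their part in the Spp1 values was not tested. Of 8 genes for osteopontin receptors, 7 were tested and 0 passed, with a median of 0.12. Itga9 had a log2 fold change of 0.41 (SE 0.23), Itgav 0.58 (SE 0.51) and Itga4 0.12 (SE 0.43), and Itga4 was negative in 2 of the 6 fits that left out 1 library, from -0.27 to 0.40. Cd44 lay between 0.299 and 0.752 FPKM and was not tested.

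Cst7 (ENSMUSG00000068129, chr2:150570415-150578944, plus strand) encodes cystatin F, an inhibitor of lysosomal cysteine proteases, and in mouse brain it is among the genes most closely tied to the disease-associated state. Its counts in the controls were 0, 8 and 34, and with ultrasound 0, 14 and 8, or 0, 0.113 and 0.799 FPKM against 0, 0.262 and 0.160 FPKM. Control 3 held most of the reads, and control 1 and ultrasound 1 held none, which allows up to 3 counts, or 0.0539 and 0.0682 CPM. With no filter on low values the log2 fold change was -0.95 (SE 1.88; edgeR adjusted p 0.983), a value that depends on how zeros are handled. Border macrophage genes, 7 in all, summed to 1.01, 2.78 and 4.12 FPKM in the controls and to 3.49, 2.42 and 3.61 FPKM with ultrasound. Of the libraries with no Cst7 reads, control 1 was the lowest in this sum and ultrasound 1 was not low. Single genes differed in ultrasound 1. Cbr2, Pf4 and Ms4a7 were above their mean over the 6 libraries there, and Mrc1, Cd163, Lyve1 and F13a1 were below theirs. The part of these genes in the Cst7 counts was not tested. Among 9 tested cystatins and cathepsins of 10, 3 were higher and 6 lower with a median of -0.04, and Ctsl, Lgmn and Ctsc had -0.15 (SE 0.15), -0.12 (SE 0.13) and 0.22 (SE 0.30), with no call.

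Other genes of the same state were examined for their level. Of 22 such genes, 15 were tested, with 7 higher and 8 lower; the median log2 fold change was -0.04 and 0 had an unadjusted p under 0.05. The genes most specific to activated microglia were scarce: Itgax, the integrin CD11c, had 7 to 28 counts per library, and Clec7a, the receptor dectin-1, was counted 56, 25 and 0 times in controls 1 to 3, and 8, 0 and 16 times with ultrasound. Gpnmb, a lysosomal glycoprotein, lay between 0.129 and 0.513 FPKM, highest in control 3. Lgals3, galectin-3, had 88 counts in ultrasound 2 and at most 31 elsewhere. These 4 were under the FPKM minimum and were not tested. In FPKM, B2m, Cd68 and Ctsd were lower in every ultrasound library than in any control. That is 3 of 15 without overlap in that direction, against 7.08% of tested genes. The gap was narrow for Cd68 (4.83 in control 2, 4.81 in ultrasound 3) and for Ctsd (127.37 in control 1, 127.25 in ultrasound 2). After the scaling used in edgeR the gap remained for B2m only. For Cd68 ultrasound 2 then lay above control 2, and for Ctsd it lay above control 1. The log2 fold changes of B2m (-0.30, SE 0.17), Cd68 (-0.31, SE 0.26) and Ctsd (-0.07, SE 0.12) did not pass in edgeR. Their adjusted p were 0.973, 0.976 and 0.984. Cd74, an antigen presentation gene, had 1.03 (SE 0.75) and was likewise not called; without control 3 its log2 fold change was 2.44, with an edgeR adjusted p of 0.234, and over the libraries left out it ran from 0.60 to 2.44.

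**Figure D2:**
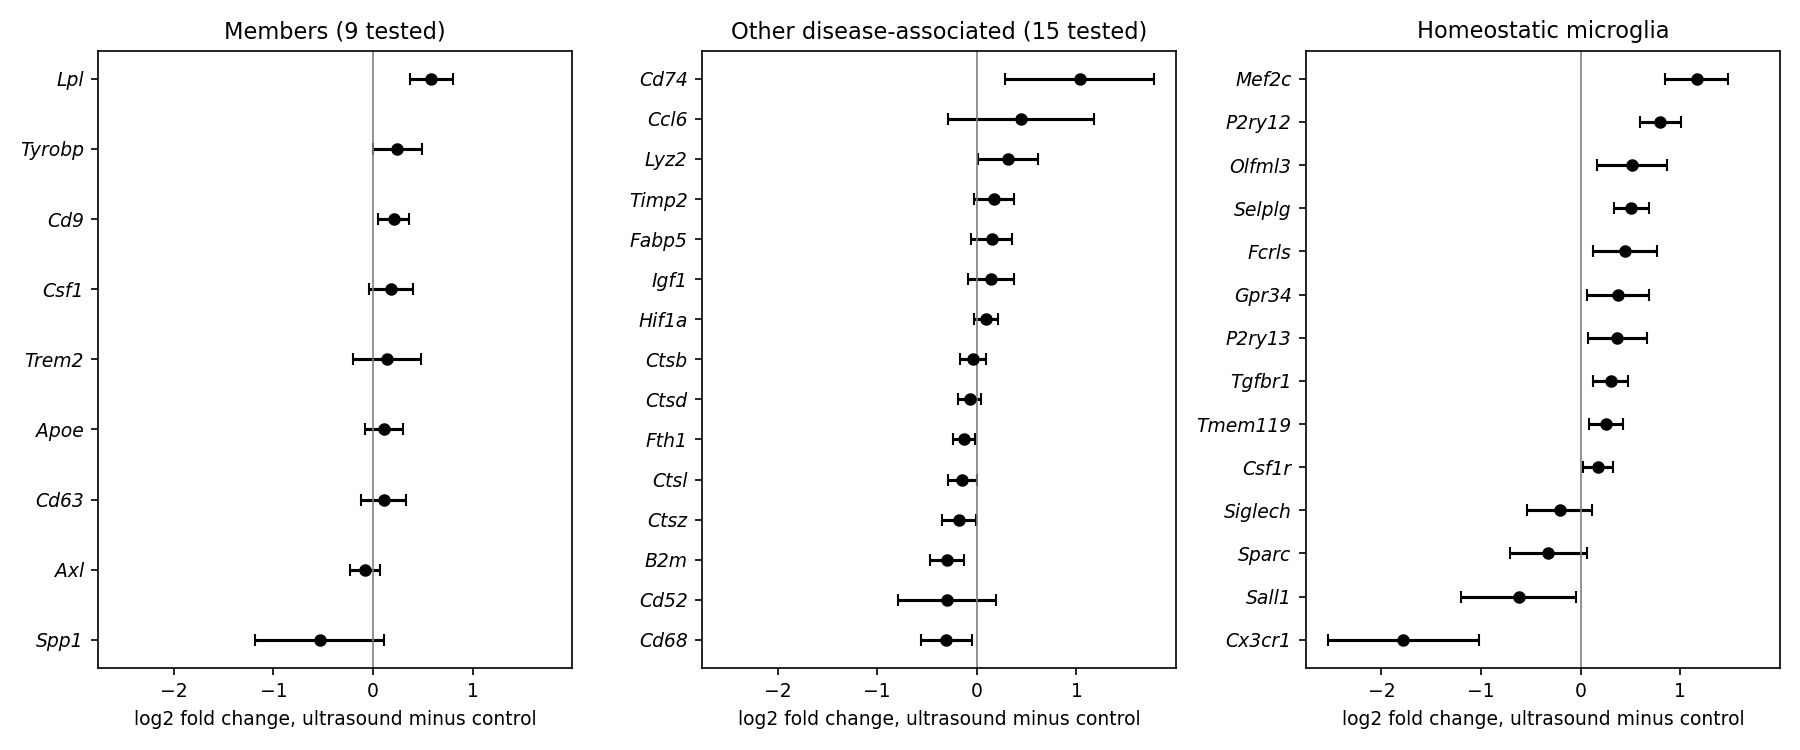
Log2 fold change, ultrasound minus control (horizontal axis), with its SE as the bar, for the tested genes of the group described here, of other disease-associated microglia genes and of homeostatic microglia genes. Lpl lies furthest to the right at 0.59 and Spp1 furthest to the left at -0.53 among the 9 genes of the first panel; none of the genes shown passed the adjusted threshold, and 1 homeostatic gene is not drawn.

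Homeostatic genes, which microglia transcribe in the healthy brain, were set beside the group. Of 15, all tested, 11 were higher with ultrasound, 3 with an unadjusted p under 0.05 in that direction against 2.45% of tested genes, and the median log2 fold change was 0.30. P2ry12, the purinergic receptor that marks resting microglia, had a log2 fold change of 0.80 (SE 0.21), Selplg had 0.51 (SE 0.18), Mef2c, which neurons also transcribe, had 1.16 (SE 0.32), and Tmem119 had 0.25 (SE 0.17). Cx3cr1, the fractalkine receptor, had -1.78 (SE 0.76), and -2.47 without ultrasound 2, with 7.09, 1.36 and 7.93 FPKM in the controls and 1.02, 2.58 and 0.971 FPKM with ultrasound. None of these 5 passed in edgeR, each with an adjusted p of 0.973.

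Relative to the mean log2 CPM of these 15 genes in each library, the 9 tested genes were compared again by a two-sided exact permutation test. Control and ultrasound libraries overlapped in 8 of the 9. Axl lay 1.28, 1.49 and 1.25 above the homeostatic mean on the log2 scale in the controls and 1.09, 0.97 and 1.21 above it with ultrasound, a difference of -0.25. Its exact permutation p of 0.1 is the smallest that 3 libraries against 3 can give, so no call could be reached, and 10.8% of tested genes separated in this measure, 9.64% with lower ultrasound values. Without Sparc and Mef2c in the homeostatic list the Axl difference was -0.21 and the exact permutation p was 0.2. Lpl was 0.40 higher (exact permutation p = 0.2) and for Spp1 the difference was -0.96 (exact permutation p = 0.3). For the other 6 genes the difference lay between -0.09 and 0.07.

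**Figure D3:**
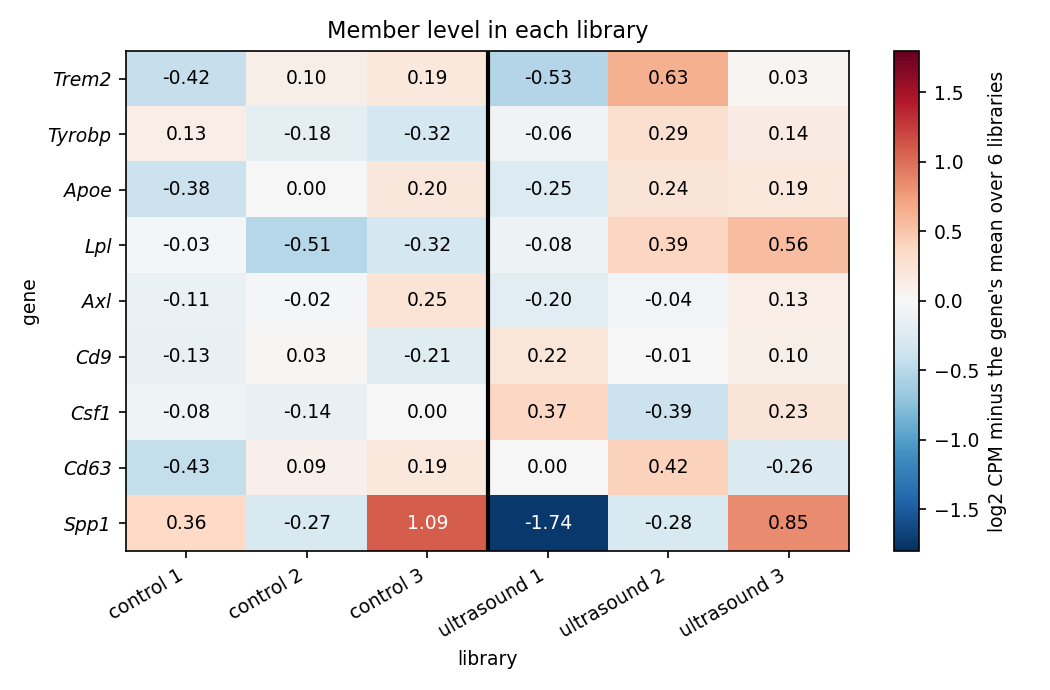
Log2 CPM of each of the 9 tested genes (rows) minus its mean over the 6 libraries (columns, controls left of the line); red is above and blue below the gene's mean. Spp1 runs from -1.74 in ultrasound 1 to 1.09 in control 3, while Axl, Cd9 and Tyrobp stay within 0.32 of their means.

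The order of the 10 genes by level was led by Apoe on each scale, and it depended below that on the length behind the value. By mean FPKM over the 6 libraries, Apoe at 401 was followed by Cd63 (11.6), Axl (10.9), Cd9 (10.4), Tyrobp (9.60), Spp1 (3.56), Csf1 (3.03), Lpl (2.27), Trem2 (1.54) and Cst7 (0.222). The ranges of Cd63, Axl, Cd9 and Tyrobp overlapped, although Cd9 exceeded Tyrobp in 4 of 6 libraries and Axl exceeded Cd9 in 5. Spp1, Csf1 and Lpl overlapped as well, and Lpl exceeded Trem2 in 5 of 6 libraries.

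The lengths implied by counts and FPKM were proportional to the union of all annotated exons of a gene, retained introns included. Among the 12613 genes whose count reached 100 in all 6 libraries, 98.2% had a ratio of implied length to exon union in GENCODE M21 within 2% of the median ratio, which was 1.12. For Trem2 this union is 4946 bases and includes an annotated retained intron, while its longest APPRIS principal transcript has 1088 bases, a 4.55-fold difference. The same ratio was 3.32 for Cd63, 2.55 for Lpl and 1.18 for Tyrobp. Per kilobase of the principal transcript, Trem2 moved from place 9 to place 6 in the order, at 7.86 CPM per kilobase (range 5.37 to 10.96), above Lpl in 3 of 6 libraries. Spp1 moved from place 6 to place 8, at 4.40 CPM per kilobase. This choice changes levels between genes and not the comparison of 1 gene between libraries.

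**Figure D4:**
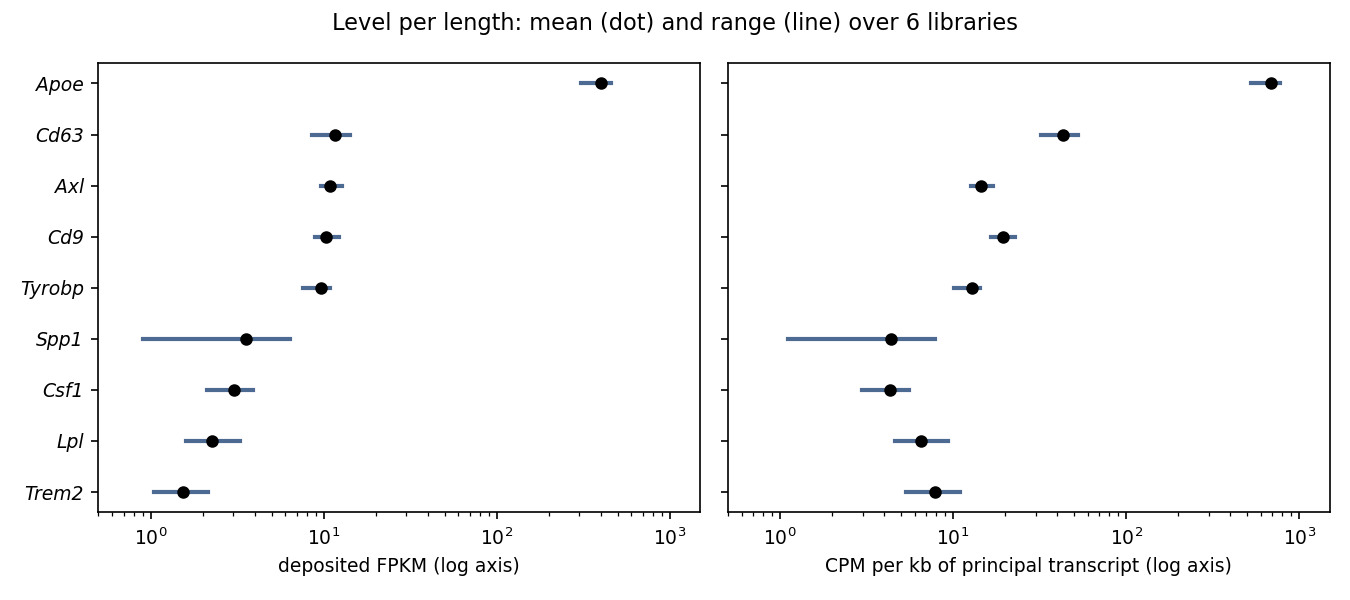
Mean (dot) and range over the 6 libraries (line) of 9 of the genes on log axes, left as deposited FPKM and right as CPM per kilobase of the longest principal transcript; Cst7, at 0 in 2 libraries, is not drawn. Trem2 is the lowest of the 9 on the left, at 1.54 FPKM, and lies above Lpl, Spp1 and Csf1 on the right, at 7.86 CPM per kilobase.

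In the pathway terms that the table pairs with genes, Csf1, Trem2 and Tyrobp share osteoclast differentiation, a term of 116 genes in the table; all 3 are known in the macrophage lineage of bone. Apoe and Lpl share cholesterol metabolism, a term of 46 genes. Csf1, Trem2 and Tyrobp had log2 fold changes of 0.18, 0.14 and 0.24, and Apoe and Lpl 0.11 and 0.59.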

How the data were processed

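Poly(A) RNA of motor cortex from 6 SOD1G93A mouse samples was sequenced as paired ends after a dUTP library preparation, per the labels' protocols. Reads were processed with cutadapt 1.9, HISAT2 2.0.4 and StringTie 1.3.4d on mm10, and DESeq2 and edgeR are also named, per the submitters' processing notes. The sources used here do not say whether counting used strand. The deposited table holds raw counts and FPKM per gene and library, per the file headers. The table's other 12 per-library columns stayed out of every step.

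Counts were tested with edgeR 4.0.16 in R 4.3.3 (quasi-likelihood test, TMM scaling, robust, 3 against 3 libraries, no covariate) over the 15740 genes whose FPKM averaged 0.5 or more. P-values were adjusted by Benjamini-Hochberg over all of them, with a threshold of 0.05. SE is the size of the log2 fold change divided by the square root of the F statistic. Log2 CPM used a prior count of 0.5. Alternatives were RLE scaling, DESeq2 1.42.0, limma 3.58.1 on log2(FPKM + 0.5) and log2(FPKM + 0.1), no filter, a mean FPKM of at least 1, a replicate block, leaving out Rn18s, leaving out control 3 and ultrasound 2, and leaving out each library. The procedure was tested on simulated data. Exact permutation tests used scipy 1.17.1. Named genes were the 10 members and the 5 genes most like Trem2. Of each companion list the 3 tested genes with the smallest p were named, and a few were added by name. Others named for their level (such as Syk, Gpihbp1, Ctsd, Ccr2, Chil3, Ngp and Camp) and the count ratios were chosen after their values were seen. The members and lists were chosen with earlier results of these data known, and lists share some genes; 1 listed homeostatic gene is not reported here. Sequences are from RefSeq promoters. The floors given for the 0 counts of Cst7 cover counting error only.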

Additional observations from a re-analysis of the deposited data

How the results depend on the processing

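The absence of a call among the 10 genes held in all 15 alternatives, with 0 past the threshold in each. Over all genes, 1 passed in the main analysis, 29 with DESeq2, 2 with no filter, 0 in both limma analyses, 8 without control 3 and ultrasound 2, and 1 to 4 when 1 library was left out (4 without control 2 and 4 without control 3). Lpl alone had an unadjusted p under 0.05 in the main analysis; this count of 1 among the 10 became 0 in both limma analyses, with the replicate block and without control 3 and ultrasound 2; it was 0 to 1 when 1 library was left out. Their median log2 fold change lay between -0.021 and 0.21 over the libraries left out, and 4 of 9 genes were higher without control 1, 5 without ultrasound 2 and 8 without control 3, against 7.

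Without control 3 and ultrasound 2 the sign turned for Trem2 (-0.095), Axl (0.032), Grb2 (0.028) and Itga4 (-0.052). Leaving out 1 library gave -0.20 to 0.38 for Trem2, -0.028 to 0.25 for Apoe, -0.097 to 0.25 for Cd63, -0.16 to 0.034 for Axl, -0.22 to 0.036 for Grb2, -0.27 to 0.40 for Itga4, -0.18 to 0.10 for Il34 and -0.019 to 0.50 for Spi1. Relative to the homeostatic genes the ranges were -0.33 to 0.12 for Trem2, -0.17 to 0.24 for Tyrobp, -0.18 to 0.076 for Apoe, -0.17 to 0.20 for Cd9, -0.26 to 0.26 for Csf1 and -0.22 to 0.10 for Cd63, and Csf1 was at 0.0065 without Sparc and Mef2c, an alternative chosen after seeing the data. The cause was not tested. Same-numbered control and ultrasound libraries did not deviate together (r = -0.03, 0.01 and 0.06), and differently numbered ones ran from -0.14 to 0.12. A pairing by number was thus not seen. It is not excluded, since RNA of other regions also set single libraries apart. With the replicate block Lpl had a log2 fold change of 0.58, an unadjusted edgeR p of 0.0578 and an adjusted p of 0.998. Cst7, with 0 to 34 counts per library, was not called with no filter either, and its depth limits what can be said of it.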
